A study of Mus musculus with 6 samples.

Results

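Long noncoding RNAs (lncRNAs) that are abundant in the nucleus, that come from imprinted loci or that host small RNAs in their introns were examined in lung endothelial cells (ECs) of AngII-infused WT and leene-KO mice. The 10 genes were chosen by symbol as Malat1, Neat1, Meg3, H19, Kcnq1ot1, Gas5, Snhg1, Snhg12, Rian and Mirg. All 10 had a row among the 47729 genes counted, and 9 of them were among the 14625 genes with enough counts to be tested. Both groups were male mice of 14 weeks on normal chow, infused with angiotensin II (AngII, a peptide that raises blood pressure) at 1000 ng/kg/min for 2 weeks from an osmotic pump, so no library came from an uninfused animal. KO mice carry a germline deletion, on the C57BL6 background, of the region that encodes leene, a lncRNA of ECs, and the deletion is therefore present in every cell type of the lung. There were 3 WT and 3 KO libraries of polyA-enriched RNA. The labels name CD31-enriched cells and a pool of 3 mice per group, whereas the methods name sorting with an antibody against CD144, and it is unclear whether a library holds 1 mouse or part of a pool, so that p-values below measure the spread between libraries.

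Malat1 and Neat1 are unspliced transcripts of neighbouring genes that stay in the nucleus, Malat1 in the splicing-factor bodies called nuclear speckles and Neat1 as the scaffold of paraspeckles. Meg3, Rian and Mirg are transcribed from the maternal chromosome of the imprinted Dlk1-Dio3 domain, H19 from the maternal and Kcnq1ot1 from the paternal chromosome of 2 adjacent imprinted domains. Gas5, Snhg1 and Snhg12 are spliced RNAs whose introns carry small nucleolar RNAs (snoRNAs), of which the box C/D class guides the methylation of ribosomal RNA. The spliced host RNA is itself degraded during translation by nonsense-mediated decay (NMD).

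Malat1 lies on the minus strand of chromosome 19 (ENSMUSG00000092341, GRCm38 chr19:5795690-5802672), and Neat1 lies 22035 bases further along on the same strand (ENSMUSG00000092274, chr19:5824708-5845478). The long transcripts of both genes, 6983 bases for Malat1 and 20771 bases for Neat1 in the annotation, are single exons. Both hold at or near their end the same arrangement, 2 uridine-rich stretches followed by an adenosine-rich one, which is known to fold into a triple helix that protects an end made by cleavage rather than by addition of a polyA tail. The ends are shown because the libraries were enriched for polyA RNA and these adenosines are encoded in the genome. Capitals mark TTTCTTTTCCTGA, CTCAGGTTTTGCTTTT and the run of A with the GCAAAA that follows it. The Malat1 sequence is the minus strand of chr19:5795982-5796075, and the Neat1 sequence that of chr19:5824708-5824807.
Malat1: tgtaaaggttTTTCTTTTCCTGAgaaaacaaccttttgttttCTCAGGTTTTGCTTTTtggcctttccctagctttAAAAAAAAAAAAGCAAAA
Neat1: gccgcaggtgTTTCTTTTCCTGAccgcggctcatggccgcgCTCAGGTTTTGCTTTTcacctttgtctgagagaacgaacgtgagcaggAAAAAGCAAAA
The run before GCAAAA has 12 A in Malat1 and 5 A in Neat1. On the transcript strand, the first motif occurred in transcripts of 21 of the 55450 annotated genes and the second in those of 2 genes, which were Malat1 and Neat1 themselves, the genes the motifs were read from. The 12 A of Malat1 are also its longest A run, and 16.0% of the tested genes had a run at least as long in some transcript. Longer runs lie inside Kcnq1ot1 (41 A, matched or exceeded in 0.0685% of tested genes), Meg3 (16 A) and Rian (15 A), and the longest in Gas5 and Snhg1 had 5 A. The annotated Malat1 transcript runs 292 bases past the window, into the stretch that gives a small tRNA-like RNA, whereas that of Neat1 stops at its last base.

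None of the 9 tested lncRNAs was called in the comparison of KO with WT, in which 0.109% of all genes were (edgeR quasi-likelihood test, 16 of 14625 genes at an adjusted p under 0.05), 1 of the 9 was under an unadjusted p of 0.05, and DESeq2, which called 1.21% of its genes, called none. Their median log2 fold change was -0.01. The wider class of 543 long noncoding genes gave 0 calls by edgeR. By the same test 44 of them, 8.10%, were under an unadjusted p of 0.05, against 10.3% of all genes tested. The median log2 fold change of the class was 0.20, against 0.03 over all genes tested. Levels below are CPM, counts scaled by the TMM method of edgeR to a common library size. Of 17 other named lncRNAs tested none was called and 3 (17.6%) did not overlap between WT and KO, against 17.8% of all genes tested, among them Trp53cor1, an RNA induced by p53, with 0.430, 0.441 and 0.621 CPM in the KO libraries and 0 to 0.196 CPM in the WT libraries. The log2 fold change of Trp53cor1 was 2.11 (SE 0.85, edgeR adjusted p = 0.473). In the WT libraries 3 counts correspond to 0.0734 to 0.140 CPM, so its WT values rest on few counts. Lockd, a noncoding gene beside Cdkn1b, had the lowest estimate of the 17, -1.05 (SE 0.58).

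Malat1 was low in 2 of the 3 WT libraries and high in the other 4 libraries. Its normalised count was 300.0 in WT-1, 370 in WT-2 and 1537 in WT-3, against 1715 in KO-1, 1347 in KO-2 and 1235 in KO-3. WT-1 and WT-2 were below every KO library, by 4.12-fold and 3.34-fold against the lowest of them, and WT-3 lay among the KO libraries. Mean CPM was 735 ± 695 in WT and 1433 ± 251 in KO (SD, n = 3), and the log2 fold change of 0.96 (SE 0.60, 95% interval -0.44 to 2.36) did not pass the test (edgeR quasi-likelihood test, adjusted p = 0.594). The SD of log2 CPM among the WT libraries, 1.28, was above that of 97.2% of tested genes, and among the KO libraries, 0.25, above that of 60.1%. With WT-3 left out, the log2 fold change was 2.08, with an adjusted p of 0.117 by edgeR, which called 0.086% of its genes, and of 3.7e-14 by DESeq2, which called 1.06%. The call by DESeq2 was made for Malat1 in that setting and in none of its 5 other fits that leave out a library, nor with all 6 libraries (adjusted p = 0.526).

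**Figure D1:**
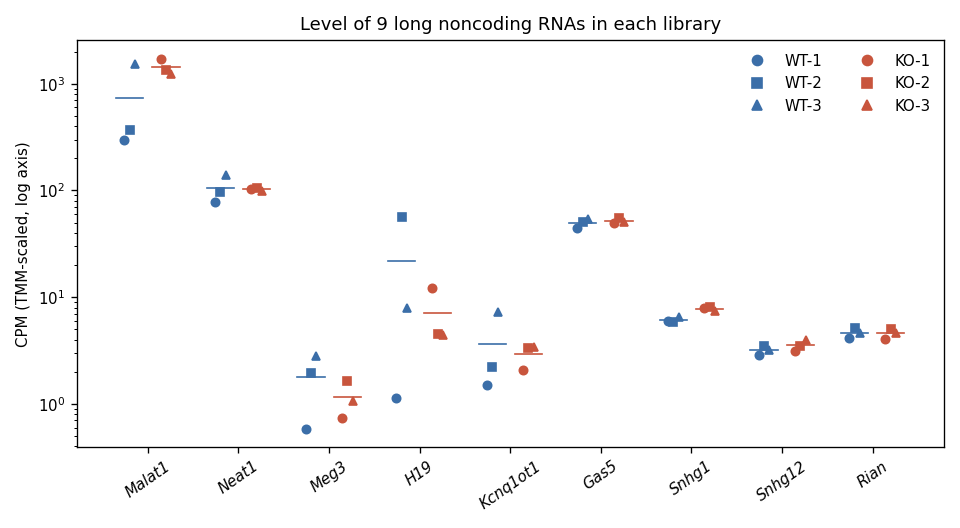
CPM of the 9 tested lncRNAs on a log axis, with each library as a point (WT blue, KO red) and the group mean as a line. For Malat1 the triangle of WT-3, 1537 CPM, stands with the 3 KO points and apart from WT-1 and WT-2, while for Gas5 all 6 points lie between 44.1 and 55.0 CPM.

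Neat1 varied less than Malat1. WT-1 and WT-2 were its lowest libraries as well, and log2 CPM of both genes had a Pearson r of 0.719 over the 6 libraries. It stood at 78.7 CPM in WT-1, 96.5 in WT-2 and 141 in WT-3, and at 103, 106 and 99.3 in KO-1, KO-2 and KO-3. The WT libraries spanned a 1.79-fold range and the KO libraries, which all lay inside it, a 1.07-fold range. The log2 fold change was -0.04 (SE 0.22, 95% interval -0.54 to 0.47, adjusted p = 0.962). WT-3 held the highest value of both genes in WT, and without it the Neat1 estimate was 0.21. Counts are summed over the gene, so the short polyadenylated form of Neat1 and the long form that builds paraspeckles cannot be told apart.

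The ratio of both RNAs within a library does not depend on the scaling. There were 26.2 Neat1 counts per 100 Malat1 counts in WT-1 and 26.1 in WT-2, against 9.15 in WT-3. The KO libraries held 5.99, 7.86 and 8.04, each below every WT library. The log2 ratio differed by -1.35 between KO (-3.79 ± 0.24) and WT (-2.44 ± 0.88), with p = 0.1 in the exact two-sided permutation test (n = 3), the smallest p that 3 against 3 libraries can give, and 0.15 when adjusted over the 3 ratios tested here. WT-3 was nearer to the highest KO library than to WT-1 and WT-2.

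**Figure D2:**
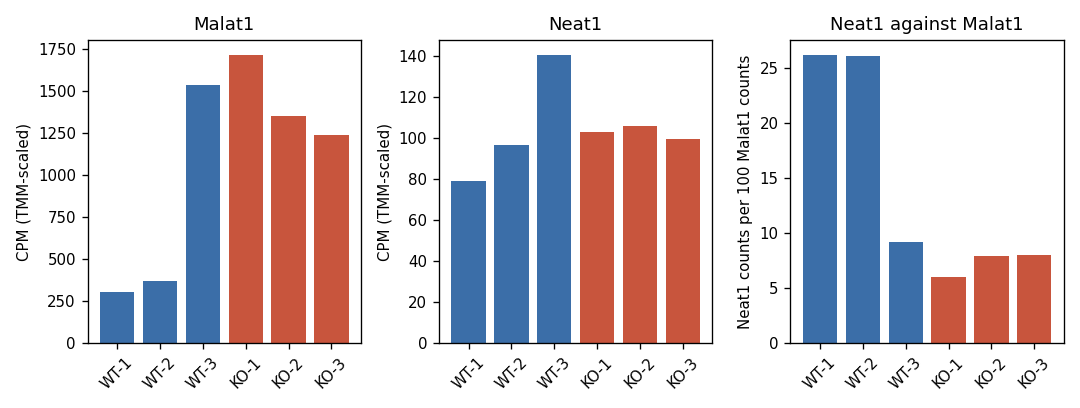
Bars give CPM of Malat1 (left) and of Neat1 (middle), and Neat1 counts per 100 Malat1 counts (right), in each library (WT blue, KO red). Malat1 is low in WT-1 and WT-2 alone, Neat1 is highest in WT-3 at 141 CPM, and the ratio is near 26 in WT-1 and WT-2 and below 10 in the other 4 libraries.

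The makeup of the libraries differed as well. All 15 endothelial markers were detected in every library, with a summed level of 2324, 2790 and 4021 CPM in WT-1, WT-2 and WT-3 and of 4164, 2633 and 3414 CPM in KO-1, KO-2 and KO-3. Markers of alveolar type II cells, the surfactant-producing epithelium, were also all detected, and summed to 5579, 52499 and 16147 CPM in WT and to between 40875 and 50306 CPM in KO. All 10 B cell markers were higher in every KO than in every WT library, as were 8.59% of all genes tested. They summed to 14.1 to 30.2 CPM in WT and to 102 to 110 CPM in KO. Of these markers 3, Cd79a, Ms4a1 and Fcrla, passed the edgeR test, where 0.109% of all genes did. DESeq2, which called 1.21% of all genes, called 8 of the 10. Mitochondrial genes took 54.5% of the counts of WT-3 and 37.4% to 46.2% of the other libraries, and total counts ranged from 24464324 to 35184063. WT-3 also held 2089 CPM of Gm26917, a noncoding gene looked at after its values were seen, against 117 to 578 CPM in the other 5. The part of these differences in the Malat1 levels was not tested, and fewer cells of a type and less RNA per cell cannot be told apart in bulk samples. The leene genes were not analysed here, as the annotation used for counting lists none of Gm41148, Gm49302 and Gm35360, so the deletion was not checked in the libraries.

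The protein genes around Malat1 and Neat1 were compared between the groups. Of 9 neighbours tested none was called, against 0.109% of all genes, and none separated the groups, against 17.8% of all genes. Their median log2 fold change was 0.00, against 0.03 over all genes tested. Frmd8, a neighbour that had the lowest estimate, was at -0.30 (SE 0.15), and Ltbp3, a binding protein of latent TGF-beta, had the highest at 0.66 (SE 0.42). The Ltbp3 level of 20.1 CPM in WT-1 was below the 40.4 to 78.3 CPM of the other libraries. Of genes outside the 10, those whose log2 CPM followed Malat1 most closely over the 6 libraries were Pcdhb22, a protocadherin (Pearson r = 0.991), and Reln, which encodes the secreted glycoprotein reelin (r = 0.990). Both were near 1 CPM in WT-1 and WT-2 and between 2.24 and 2.81 CPM in the other 4 libraries. Neat1 was followed most closely by Hacd1 (r = 0.996), an enzyme of very long chain fatty acid synthesis, and by the noncoding Gm20186 (r = 0.992). These r values were picked from all tested genes over 6 libraries and are a description.

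Proteins of both nuclear bodies were followed as lists. Of 20 genes for paraspeckle proteins, 1 passed the edgeR test, where 0.109% of all genes did. It was Cirbp, a cold-inducible RNA-binding protein, at 8.52, 8.40 and 12.2 CPM in WT and 26.9, 25.1 and 25.1 CPM in KO. Its log2 fold change was 1.41 (SE 0.18, adjusted p = 0.0489), and DESeq2, which called 1.21% of all genes, called it as well (adjusted p = 3.2e-07). With 1 library left out, edgeR called 0 of the list without WT-1, KO-1, KO-2 or KO-3, 1 without WT-3 and 2 without WT-2. Over all genes it called 24 of 14958 without WT-1, 13 of 15109 without WT-3 and 791 of 14950 without WT-2. Without KO-1, KO-2 or KO-3 it called 0 of all genes. The core paraspeckle proteins Nono and Sfpq had log2 fold changes of 0.02 (SE 0.15) and -0.51 (SE 0.14, adjusted p = 0.307), and both were named after their values were seen. The KO values of Sfpq, 72.8 to 85.8 CPM, were all below the WT values of 104 to 120 CPM. The groups did not overlap for 5 of the 20, which is 25.0%, against 17.8% of all genes tested, and the list's median was -0.17. Of 15 nuclear speckle genes none was called and 6 did not overlap, against 17.8% of all genes. Their median was -0.20 and 13 of 15 estimates were below 0, as were 6714 of 14625 over all genes tested. The splicing factor Srsf5 had the highest estimate, 0.78 (SE 0.13, adjusted p = 0.119), with 33.5 to 41.2 CPM in WT and 58.4 to 64.2 CPM in KO, and DESeq2 called it (adjusted p = 0.0037). Srsf1, another splicing factor, had the lowest, -0.37 (SE 0.14).

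The 3 snoRNA hosts varied little between libraries. Gas5 (ENSMUSG00000053332, chr1:161034422-161038539, plus strand) carries 10 snoRNA genes in its span, Snhg1 (ENSMUSG00000108414, chr19:8723475-8726443, plus strand) 8 and Snhg12 (ENSMUSG00000086290, chr4:132308678-132311024, plus strand) 5. Host genes of snoRNAs are known for a pyrimidine tract at the start of transcription (5′ TOP), which ties them to the genes of the translation machinery. The RefSeq starts of the 3 host genes are shown for this reason, with 30 bases before and 30 from the start site on (GRCm38.p6, plus strand), and capitals mark the unbroken run of C and T that touches the start. The windows are chr1:161035136-161035195, chr4:132308648-132308707 and chr19:8723457-8723516.
Gas5: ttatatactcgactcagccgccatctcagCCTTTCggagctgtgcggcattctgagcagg
Snhg12: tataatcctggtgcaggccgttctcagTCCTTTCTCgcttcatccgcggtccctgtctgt
Snhg1: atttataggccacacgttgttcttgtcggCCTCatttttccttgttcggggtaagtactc
The run is 6 bases in Gas5, 9 in Snhg12 and 4 in Snhg1. Of the 32851 promoters listed, 10.7% had a run of at least 6, 3.92% of at least 9 and 23.8% of at least 4. Gas5 has another listed start upstream, where the run is 1 base. The run at the start of Malat1 is 2 bases, which 51.0% of promoters reach.

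Gas5, known as an RNA that accumulates in growth-arrested cells, had 44.1, 50.3 and 53.8 CPM in the WT libraries and 49.1, 55.0 and 50.9 CPM in the KO libraries. The groups overlapped and the log2 fold change was 0.07 (SE 0.13, adjusted p = 0.861), with a 95% interval from -0.23 to 0.36. Snhg12 values, 2.89, 3.46 and 3.18 CPM (WT) and 3.14, 3.49 and 3.97 CPM (KO), also overlapped (log2 fold change 0.15, SE 0.21, adjusted p = 0.798). Counts behind these values ranged from 1143 to 1801 for Gas5 and from 68 to 118 for Snhg12.

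Snhg1 was the member whose groups did not overlap. The WT libraries held 5.95, 5.84 and 6.56 CPM and the KO libraries 7.99, 8.06 and 7.42 CPM. The lowest KO value exceeded the highest WT value, as in 8.59% of all genes tested. The log2 fold change was 0.36 (SE 0.15, 95% interval 0.01 to 0.70) at an unadjusted p of 0.0452, a level reached by 10.3% of all genes, and the adjusted p was 0.479. The SD of its log2 CPM was 0.09 in WT and 0.07 in KO, above that of 9.32% and 9.76% of tested genes. On the scale of total counts without mitochondrial genes the log2 fold change was 0.14, where the median of all genes was lower by 0.21. Within a library there were 741, 860 and 821 Gas5 counts per 100 Snhg1 counts in WT and 615, 682 and 686 in KO. The log2 ratio of Gas5 to Snhg1 differed by -0.29 between KO (2.72 ± 0.09) and WT (3.01 ± 0.11), with an exact two-sided permutation p of 0.1 (n = 3), the smallest possible here, and 0.15 adjusted over the 3 ratios.

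The snoRNAs themselves could not be followed in these libraries. The 10 snoRNA rows inside Gas5, the 8 inside Snhg1 and the 5 inside Snhg12 held 0 counts in all 6 libraries together. Exons of these rows overlap 17.8%, 20.9% and 20.5% of the counted exon length of their hosts on the same strand, and reads there were assigned to neither gene.

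Of 11 other snoRNA host genes tested none was called, against 0.109% of all genes, and none separated the groups, against 17.8% of all genes. Their median log2 fold change was 0.19, and 8 of 11 estimates were above 0, as were 7911 of 14625 over all genes tested. Snhg11 had the highest, 0.62 (SE 0.43), and Snhg6 the lowest, -0.29 (SE 0.23). Snhg8, another host, and Ppa2, a mitochondrial pyrophosphatase, followed Gas5 most closely over the 6 libraries (r = 0.985 and 0.996). Of the genes next to the hosts, 6 were tested. The highest log2 fold change, 0.56 (SE 0.24, adjusted p = 0.493), was that of Zbtb37, a zinc finger gene on the opposite strand at Gas5. Its KO values were all above its WT values, as in 8.59% of all genes tested. Slc3a2, the amino acid transporter chain gene beside Snhg1, was at 0.28 (SE 0.36), Trnau1ap, a selenocysteine tRNA cofactor beside Snhg12, at 0.02 (SE 0.16), and Phactr4 had the lowest estimate, -0.14 (SE 0.13).

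The proteins that build box C/D snoRNPs and the factors of NMD were not called either. The snoRNP list of 10 genes includes Zfp706, which is not an established snoRNP protein, at -0.03 (SE 0.13). Of the 10, 9 had estimates below 0, as had 6714 of all 14625 genes tested. The median was -0.17, and 3 did not overlap, against 17.8% of all genes tested. Fbl, the methyltransferase fibrillarin, had the lowest estimate, -0.91 (SE 0.41, adjusted p = 0.497), at 2.08, 2.64 and 3.42 CPM in WT and 1.93, 1.66 and 0.724 CPM in KO, and Znhit3, an assembly factor, the highest at 0.18 (SE 0.25). Of 18 NMD factors, 15 had estimates below 0, the median was -0.16, and 7 (38.9%, against 17.8% of all genes) did not overlap, 6 of these lower in KO (9.2% of all genes). Smg8, a regulator of the kinase SMG1, had the lowest, -0.43 (SE 0.19), and Upf3b the highest, 0.56 (SE 0.30).

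**Figure D3:**
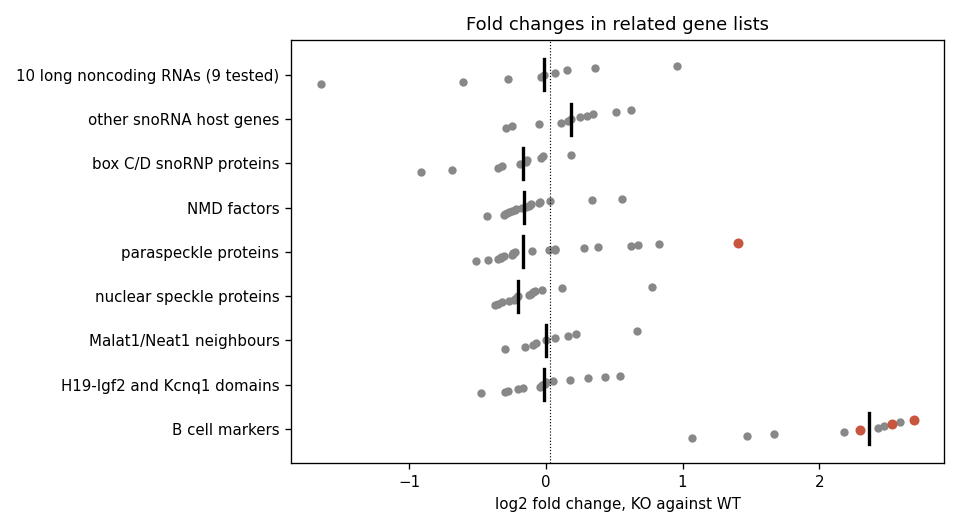
Log2 fold change of each tested gene (points) in 9 gene lists, with the list's median (black bar), genes at an adjusted p under 0.05 in red and the median of all genes tested, 0.03, as a dotted line. None of the 9 tested lncRNAs is red, 1 paraspeckle gene and 3 B cell markers are, and the snoRNP, NMD and speckle lists have medians of -0.17, -0.16 and -0.20.

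The imprinted RNAs were scarce or uneven. In the Dlk1-Dio3 domain, Meg3 (ENSMUSG00000021268, chr12:109541001-109571726, plus strand) measured 0.588, 1.97 and 2.81 CPM in the WT libraries and 0.731, 1.66 and 1.07 CPM in the KO libraries. Both groups overlapped, and the values rested on 17 to 67 counts in a library. The log2 fold change was -0.60 (SE 0.59, adjusted p = 0.718), with an interval from -1.98 to 0.77. Rian (ENSMUSG00000097451, chr12:109603940-109661716, plus strand), which lies 32213 bases downstream and hosts 13 snoRNA genes, measured 4.14, 5.20 and 4.64 CPM in the WT libraries and 4.08, 5.08 and 4.66 CPM in the KO libraries. These sets of values nearly coincided (log2 fold change -0.01, SE 0.19, adjusted p = 0.984). Mirg (ENSMUSG00000097391, chr12:109729764-109749460, plus strand), a further 68047 bases downstream and host of 14 microRNA genes, was too low to be tested, with 0 counts in WT-1, 17 in WT-2, 2 in WT-3, 3 in KO-1, 7 in KO-2 and 3 in KO-3. The 0 of WT-1 allows up to 3 counts, or 0.0734 CPM, by counting error alone.

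Rian and Mirg were both lowest in WT-1 and highest in WT-2 among the WT libraries, and Meg3 was highest in WT-3. Over the 6 libraries the log2 CPM of Meg3 and Rian had an r of 0.759. There were 14.2 Meg3 counts per 100 Rian counts in WT-1, 37.9 in WT-2 and 60.6 in WT-3, against 17.9, 32.6 and 23.0 in KO. The log2 ratio differed by -0.43 between KO and WT, with an exact two-sided permutation p of 0.6 (n = 3), also 0.6 when adjusted. Of the protein genes of the domain, Dlk1, the paternally expressed ligand that gives it its name, was too low to be tested, and Begain and Wdr25 had log2 fold changes of 0.00 (SE 0.47) and 0.01 (SE 0.23). Meg3 was followed most closely over the 6 libraries by the noncoding A330023F24Rik (r = 0.994) and by Uqcrh, a subunit of respiratory complex III (r = 0.979).

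H19 (ENSMUSG00000000031, chr7:142575529-142578143, minus strand), an RNA of fetal tissues that hosts miR-675, was set by 1 library. The WT libraries held 1.13, 56.9 and 7.96 CPM and the KO libraries 12.2, 4.56 and 4.42 CPM. WT-2 was 50.5 times WT-1 and 4.65 times the highest other library, and the SD of log2 CPM in WT, 2.79, was above that of 99.986% of tested genes. The log2 fold change of -1.65 (SE 1.13, 95% interval -4.28 to 0.99, adjusted p = 0.625) became 0.66 without WT-2. On total counts as the scale, where 0.841% of all genes were called, H19 was called (log2 fold change -1.70, edgeR adjusted p = 4.9e-05) although WT and KO values overlap on that scale as well. Igf2, the growth factor gene 72622 bases away that shares enhancers with H19, was also highest in WT-2, at 32.9 CPM against 14.2 to 24.7 CPM elsewhere, and its log2 fold change was 0.05 (SE 0.30). The row of the miR-675 gene inside H19 held 0 counts.

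Kcnq1ot1 (ENSMUSG00000101609, chr7:143212155-143296549, minus strand), an unspliced RNA antisense to the potassium channel gene Kcnq1, measured 1.49, 2.20 and 7.21 CPM in the WT libraries and 2.06, 3.31 and 3.41 CPM in the KO libraries. WT-3 held 2.11 times the highest other library. The log2 fold change was -0.28 (SE 0.57, adjusted p = 0.869), and 0.66 without WT-3. Over the 6 libraries its log2 CPM went with that of Neat1 (r = 0.930) and less with that of Malat1 (r = 0.635), a description over libraries in which WT-3 is the highest for both Neat1 and Kcnq1ot1. Kcnq1 itself, whose reads come from the other strand and were counted apart, had a log2 fold change of 0.31 (SE 0.15, adjusted p = 0.509). Cdkn1c, the growth inhibitor that this domain is known to silence on the paternal chromosome, measured 29.7, 30.6 and 28.8 CPM in the WT libraries and 15.8, 22.1 and 26.2 CPM in the KO libraries. All KO values were below all WT values, as for 9.2% of all genes, and the log2 fold change of -0.48 (SE 0.19, adjusted p = 0.468) did not pass the test.

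Of 14 tested genes of the H19-Igf2 and Kcnq1 domains none was called, with a median of -0.01, and the estimates ran from that of Cdkn1c to 0.54 (SE 0.35) for Cd81, a tetraspanin gene. Of 17 other imprinted genes none was called, and 6 (35.3%, against 17.8% of all genes) did not overlap. Peg10, a gene derived from a retrotransposon, had the lowest estimate, -0.83 (SE 0.29, adjusted p = 0.412), and Igf2r, the receptor that clears IGF2, the highest, 0.66 (SE 0.40).

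**Figure D4:**
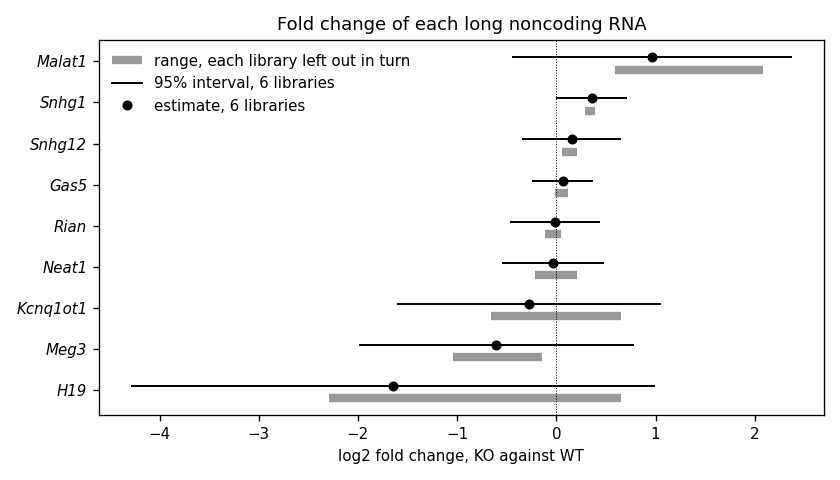
Log2 fold change of KO against WT for the 9 tested lncRNAs (points) with the 95% interval (black line) and the range over the 6 fits that leave out 1 library (grey bar). Every interval except that of Snhg1 (0.01 to 0.70) spans 0, and the grey bars of H19, Kcnq1ot1 and Malat1 are the 3 widest.

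Per length, the 10 RNAs spanned several orders of magnitude. Levels were compared as CPM per kilobase of counted exon, averaged over the 6 libraries. Malat1 stood at 155 ± 86.4 (SD over the 6 libraries) and was above Gas5, at 13.4 ± 1.02, in every library. H19, at 6.13 ± 8.89, and Neat1, between 3.79 and 6.77, were next, and H19 overlapped Gas5 and Neat1 in range. Snhg1, at 2.35 ± 0.33, and Snhg12, at 2.06 ± 0.23, overlapped with each other. Rian, at 0.265 ± 0.026, lay below the host genes and above Meg3, at 0.0813 ± 0.0467, without overlap on either side. Meg3, Kcnq1ot1, at 0.0389 ± 0.0245, and Mirg, at 0.0247, overlapped in turn. The lengths merge all annotated exons, and for Snhg1 they cover the introns as well, so that the level of a spliced host RNA is understated on this scale. Among the 543 long noncoding genes tested, Malat1 had the 2nd highest mean CPM and Neat1 the 5th highest.

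**Figure D5:**
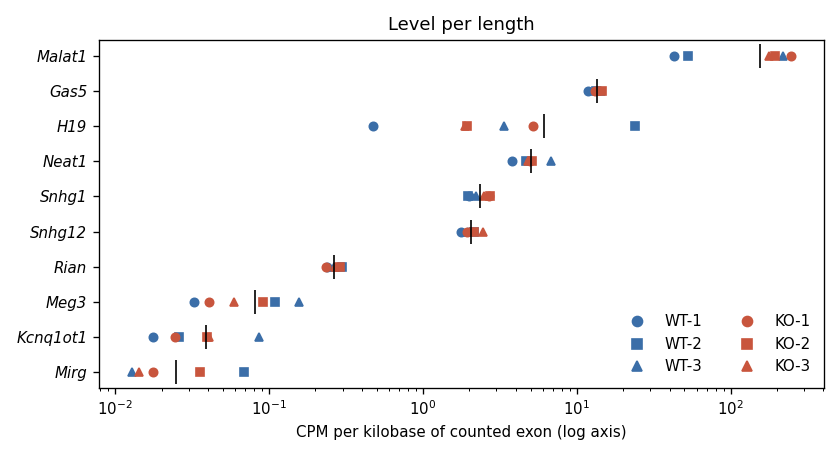
CPM per kilobase of counted exon on a log axis for the 10 lncRNAs, with each library as a point (WT blue, KO red) and the mean over 6 libraries as a tick; the 0 of Mirg in WT-1 is not drawn. Malat1 is at 43.0 and 53.0 in WT-1 and WT-2 and between 177 and 246 elsewhere, while the points of Gas5, Snhg1, Snhg12 and Rian cluster tightly.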

How the data were processed

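Lung EC libraries (KAPA stranded mRNA, single reads) were aligned with STAR 2.5.4b to mm10 per the labels, and the authors deposited raw counts of reads for each gene. They were made with featureCounts (Subread 2.0.0) from Ensembl release 84 exons, reverse-strand counting and uniquely aligned reads, and reads shared by overlapping genes were dropped. Antisense genes are thus told apart, whereas overlapping same-strand genes lose reads. The groups come from the labels.

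Counts were tested in R 4.3.3 with edgeR 4.0.16 (filterByExpr, TMM, glmQLFit and glmQLFTest, genotype as the only term) and adjusted by Benjamini-Hochberg over all 14625 genes. A gene was called at an adjusted p under 0.05. Ratios of counts were compared by exact two-sided permutation. DESeq2 1.42.0, limma-voom (limma 3.58.1) and other settings were alternatives. The fit was tested on simulated data. Symbols and annotation came from GENCODE vM21, sequences from GENCODE (GRCm38) and RefSeq (GRCm38.p6). Of the 10 members, 8 had a RefSeq promoter.

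The members and gene lists were chosen with earlier results of these data known. Genes named were the members, their fixed neighbours, called list genes or otherwise the extremes of each list, and the 2 genes most correlated with Malat1, Neat1, Meg3 and Gas5. A neighbour that the rule names is not reported here. The numbers of replicates do not pair the samples.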

Additional observations from a re-analysis of the deposited data

How the results depend on the processing

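With 3 libraries a group the precision was limited, and members under 10 CPM rested on few counts. The number of genes called was 16, and 187 with DESeq2, 26 with limma-voom, 211 with the likelihood ratio test, 26 with RLE and 31 with upper-quartile scaling, 123 with total counts, 113 with total counts without mitochondrial genes, 152 with no filter, and 0 to 791 with a library left out. It was 791 without WT-2 and 0 without KO-1, KO-2 or KO-3. Total counts lowered the median log2 fold change of all genes by 0.17, and by 0.21 without mitochondrial genes. Under a replicate block 0 genes were called (1776 under an unadjusted p of 0.05). Samples with the same number did not deviate together (r = -0.08, 0.22 and 0.01), so the numbers do not pair the libraries.

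No member was called under 9 of the 10 other settings with all libraries. With total counts 1 was called, H19 (log2 fold change -1.70, adjusted p 4.9e-05), although its groups overlap; the cause was not tested. Leaving out a library called 0 members with edgeR and 0 to 1 with DESeq2 (fits chosen after seeing the data), the call being Malat1 without WT-3. In these fits Malat1 ranged from 0.59 to 2.08 with edgeR and from 0.58 to 2.07 with DESeq2, Neat1 from -0.21 to 0.21 and from -0.21 to 0.20, H19 from -2.29 to 0.66 and from -2.30 to 0.61, Kcnq1ot1 from -0.66 to 0.66 and from -0.68 to 0.65, Gas5 from -0.015 to 0.11 and from -0.017 to 0.10, and Rian from -0.12 to 0.045 and from -0.12 to 0.035. Estimates near 0 also changed sign for Neat1 with the replicate block (0.0070), Rian (0.0015) and Kcnq1ot1 (0.23) with limma-voom, Gas5 with total counts (-0.082) and without mitochondrial genes (-0.14), and Snhg12 (-0.046) without mitochondrial genes; no cause was tested. Malat1, Meg3 and Snhg1 kept their sign in every alternative run.

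The Meg3 to Rian difference ranged from -1.01 to 0.035 with a library left out, that of Neat1 to Malat1 from -1.85 to -1.09 and that of Gas5 to Snhg1 from -0.35 to -0.24. List medians moved by more than the spread between libraries in 7 lists, for other lncRNAs over -0.089 to 0.16, Malat1 and Neat1 neighbours over -0.11 to 0.035, other imprinted genes over -0.095 to 0.0048, snoRNP proteins over -0.25 to -0.13, endothelial over -0.078 to 0.52, alveolar type II over 0.34 to 1.97, and smooth muscle and pericyte markers over -0.47 to -0.088. The order per length was the same under both other scales.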

Other observations

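Markers of the remaining cell types gave these values. All 10 T cell markers had estimates above 0 (median log2 fold change 1.01), as had 7911 of all 14625 genes tested. Of the 10, edgeR called none, while 4 did not overlap, all higher in KO, as were 8.59% of all genes tested. Macrophage markers had a median of 0.17, neutrophil markers 0.04, club and ciliated cell markers 0.46, fibroblast markers 0.16, and smooth muscle and pericyte markers -0.23. edgeR, which called 0.109% of all genes, called none of these markers. DESeq2, which called 1.21% of all genes, called 1 of them, Tagln of smooth muscle (log2 fold change -1.06, DESeq2 adjusted p = 0.000497). The 15 endothelial markers had a median of 0.12 and the 8 alveolar type II markers one of 0.79, with none called by either tool.

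Within the 9 tested lncRNAs, log2 CPM of Malat1 and Snhg1 had an r of 0.839 that of Neat1 and Gas5 one of 0.803, and Malat1 and Rian one of -0.05. These describe 6 libraries that share their genotype groups.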
